A study of Rattus norvegicus with 30 samples.

Results

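The genes described here are a set of matrix and transport genes that mark fibroblasts of the meninges, the membranes that cover the brain. The set named 10 symbols, namely Col1a1, Col1a2, Col3a1, Dcn, Lum, Ogn, Slc6a13, Aldh1a2, Fmod and Bgn, and the rows were taken by gene symbol. Of these, 9 were matched among the 17134 genes of the table, and Ogn was not matched and is not analysed here. The genes were chosen as a sign of how much meninges came with the dissected brain tissue, and rows were picked by symbol and not by value.

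RNA-seq was performed on brain tissue from 30 male Sprague Dawley rats on a normal diet, with 10 rats in each of 3 groups. WT rats express rat amylin only, HIP rats express human amylin in addition to rat amylin, and AKO rats are amylin knockouts. In HIP rats the human protein is made in pancreatic β-cells, and the study asked what the circulating protein does in the brain. The HIP and WT rats were 15 to 16 months old, as were AKO rats kept as negative controls, though the age of the AKO rats sequenced here is not given separately in the sources used here. The sample annotation calls the tissue frontal cortex, the methods of the study call it cerebral cortex, and its results call it hippocampus. The names of the AKO rats fall into 2 series, with KAH in the name of 4 rats and AKO in the name of 6, while all WT and HIP rats have RT in the name. What the name series stand for is not given in the sources used here. Iapp, the gene removed in AKO rats, was not matched by symbol and is not analysed here.

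The meninges consist of dura, arachnoid and pia, and each layer holds fibroblasts that lay down a collagen-rich matrix over an otherwise collagen-poor brain. Fibroblasts of the same kind follow large vessels into the cortex and lie in the stroma of the choroid plexus, so a bulk sample of cortex always holds some of their RNA. Arachnoid and pial fibroblasts also carry solute transporters and make retinoic acid, which acts on the developing cortex and on its vessels. In bulk tissue, fewer cells of a type cannot be told apart from less RNA per cell.

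Values are normalized counts, that is, read counts that the authors scaled between rats with DESeq2. They are not corrected for transcript length, so levels were compared between rats for each gene and not between genes. The total of a rat lay between 15.4 and 17.98 M (mega). The reads behind these totals were estimated at 12.9 to 23.6 M per rat. The smallest value of any of the 9 genes in any rat, for Lum, stood for an estimated 24.0 reads, above the floor of 3 reads used for detection. Each gene was therefore measured in each rat.

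Some libraries held RNA of other brain regions. The mean log2 level of 9 neocortex markers was 9.90 to 11.1 in every rat other than WT rat 10RT43, where it was 7.10. In 10RT43 the mean of 8 cerebellum markers was 12.9, and Gabra6, a granule cell GABA receptor subunit, reached 17979 normalized counts. HIP rat 12RT23 also had a high cerebellum mean of 10.1, against 5.75 or less in the rats other than these. HIP rat 10RT46 had high means of 8 pineal markers (9.40) and of 13 choroid plexus markers (8.25), with 19081 normalized counts of the pineal gene Tph1 and 14881 of the choroid plexus gene Ttr. AKO rat 7AKO19 had a choroid plexus mean of 6.33. The choroid plexus mean was 3.98 or less in the rats other than 10RT46 and 7AKO19, and the pineal mean was 1.78 or less in the rats other than 10RT46. The mean of 7 olfactory bulb markers was 9.03 in 10RT51 and 8.89 in 10RT50 (WT), 8.21 in 10RT53 and 8.05 in 10RT49 (HIP), and 8.94 in 6AKO35 and 7.64 in 4KAH35 (AKO). The next highest was 6.76, in WT rat 10RT57. The group median of this mean was 4.07 in WT, 4.23 in HIP and 4.76 in AKO rats. The mean of 8 striatum markers was highest in 10RT55 of the WT rats (10.1), 10RT54 of the HIP rats (9.70) and 4KAH27 of the AKO rats (10.1). Its group medians were 8.01, 7.65 and 7.89. Group comparisons are given with and without 10RT43, 10RT46, 7AKO19 and 12RT23. No fit left out as a set the rats high in olfactory bulb markers or those high in striatum markers.

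Promoter sequence was found for 4 of the 9 genes, Col1a2, Aldh1a2, Lum and Fmod, in a RefSeq table of the assembly GRCr8. The reads were counted on the assembly rn7, and no position was converted. The 250 bases before each annotated start were searched on both strands for a CCAAT box (CCAAT or ATTGG) and a TATA box (TATAAA or TTTATA), common promoter letters. The search was made because the 9 genes moved together over the rats, as described later. Whether these letters have a part in that was not tested. A CCAAT box was found in 4 of these 4 promoters and in 34% of the 33469 promoters of the table. The TATA letters were found in 1 of the 4, that of Col1a2, and in 12.9% of all promoters. The stretches around the matches are shown 5′ to 3′ on the plus strand, which is the strand of all 4 genes, with the matched letters in capitals. A match is a description of the sequence and not a site of binding.
Col1a2, chr4:33518316-33518412 (GRCr8, plus strand): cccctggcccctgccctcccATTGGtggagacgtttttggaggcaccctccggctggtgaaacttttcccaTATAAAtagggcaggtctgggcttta
Aldh1a2, chr8:80758536-80758580 (GRCr8, plus strand): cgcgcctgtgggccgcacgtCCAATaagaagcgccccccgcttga
Lum, chr7:34245556-34245600 (GRCr8, plus strand): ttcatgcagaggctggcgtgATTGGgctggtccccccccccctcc
Fmod, chr13:48045317-48045344 (GRCr8, plus strand): ctgCCAATgcttcagggaagataaccca
In Col1a2 the CCAAT letters lay on the reverse strand 221 to 217 bases before the annotated start, and the TATA letters lay 170 to 165 bases before it. The CCAAT letters lay 85 to 81 bases before the start of Aldh1a2, 130 to 126 bases before that of Lum, on the reverse strand, and 247 to 243 bases before that of Fmod.

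The 3 fibrillar collagen genes were present in all groups and varied widely from rat to rat. Col1a1 and Col1a2 encode the chains of type I collagen, the main fibre of dura and arachnoid, and Col3a1 encodes type III collagen, which forms thinner fibres with it. None of them differed between the groups beyond the spread of the rats.

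For Col1a1, the lowest, median and highest normalized counts were 139.6, 351 and 502 in WT rats, 189, 302 and 531 in HIP rats, and 86.4, 365 and 1062 in AKO rats. The WT and HIP rats covered overlapping ranges, and the AKO rats reached both below and above them, with 4KAH27 lowest and 6KAH99 highest of all 30. The mean was 338 ± 132.01 in WT rats, 339.6 ± 121 in HIP rats and 471 ± 304 in AKO rats (SD, n = 10 per group). Col1a1 differed by 0.041 ± 0.24 on the log2 scale for HIP vs. WT rats and 0.29 ± 0.36 for AKO vs. WT rats (SE).

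Col1a2 had lowest, median and highest normalized counts of 393, 611 and 1135 in WT rats, 377, 669 and 984 in HIP rats, and 221, 696 and 1617 in AKO rats. The groups overlapped, and the same 2 AKO rats, 4KAH27 and 6KAH99, were lowest and highest of the 30 rats. The log2 difference was 0.081 ± 0.21 for HIP vs. WT rats and 0.23 ± 0.30 for AKO vs. WT rats (SE). The 95% confidence interval of the fold was 0.786 to 1.42 for HIP vs. WT rats and 0.768 to 1.80 for AKO vs. WT rats.

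Col3a1 ran from 113 through a median of 225 to 529 in WT rats, from 165 through 270.4 to 447 in HIP rats, and from 96.0 through 285 to 805 in AKO rats. WT rat 10RT51 stood apart from the other WT rats, the next of which had 301, and the 3 highest AKO rats (6KAH99 with 805, 6KAH98 with 775 and 4KAH35 with 739.8) were above every WT and HIP rat. For AKO vs. WT rats the log2 difference in Col3a1 was 0.46 ± 0.34 (SE), with an unadjusted p of 0.191 and a Benjamini-Hochberg adjusted p of 0.664 in limma. The fold of AKO over WT rats was 1.38, with a 95% confidence interval of 0.842 to 2.25.

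**Figure D1:**
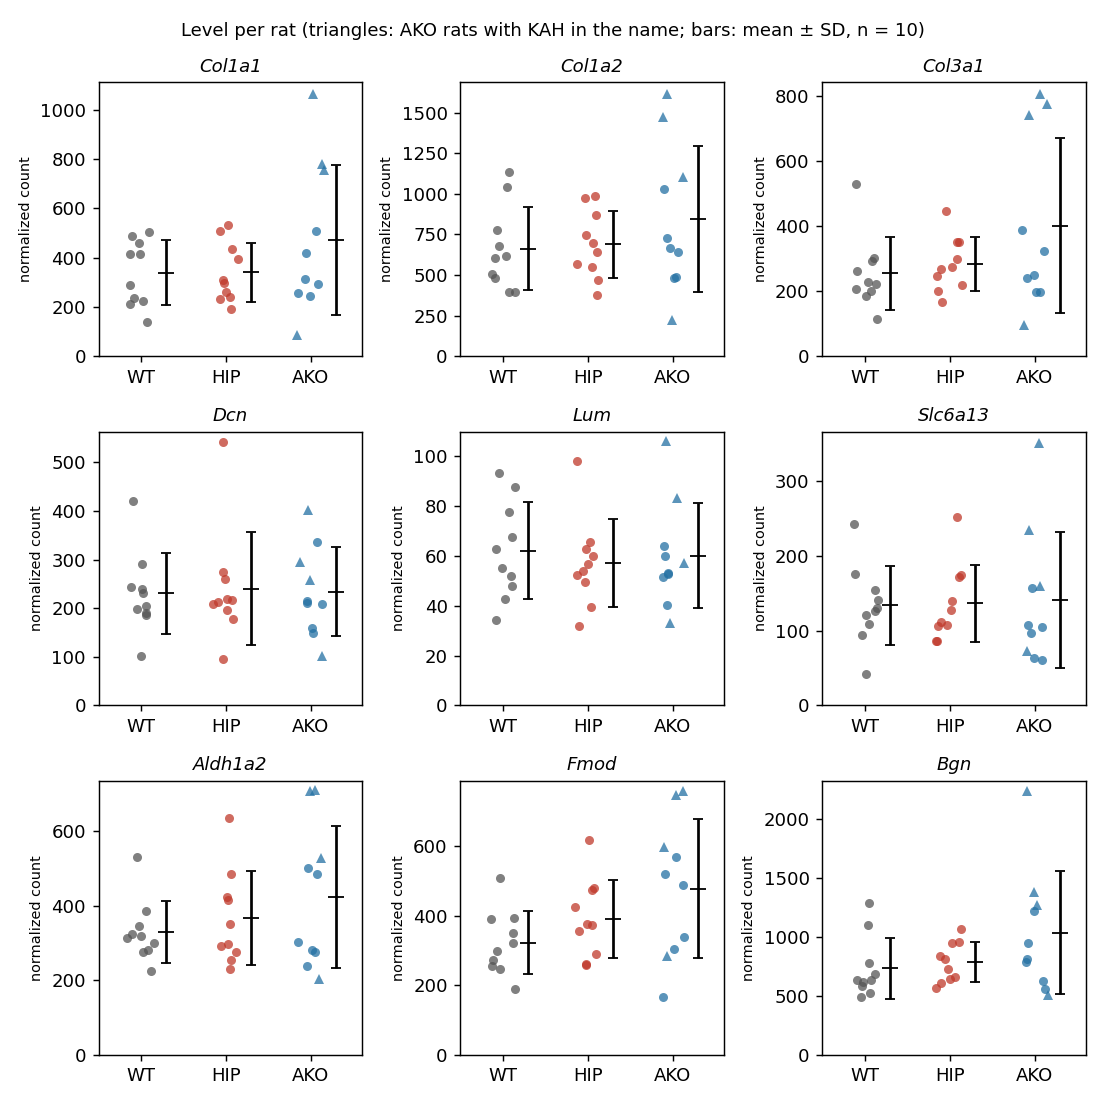
Normalized count of each of the 9 genes in each rat, in 1 panel per gene with a linear axis from 0 and the groups WT, HIP and AKO side by side. Points are rats, triangles are the AKO rats with KAH in the name, and bars are the mean ± SD (n = 10); for Col1a1 the AKO rats reach from 86.4 to 1062, beyond the WT range of 139.6 to 502 on both sides.

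The small leucine-rich proteoglycans Dcn, Lum, Fmod and Bgn bind collagen fibrils and set their width and spacing. Decorin (Dcn) and lumican (Lum) had close to the same level in the 3 groups, and fibromodulin (Fmod) and biglycan (Bgn) had the highest mean in AKO rats, without passing the test.

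Dcn ran from 102 through a median of 218 to 419.7 in WT rats, from 95.8 through 214 to 541 in HIP rats, and from 101 through 213 to 403 in AKO rats. The 3 medians lay close together, and a single HIP rat, 10RT46, the rat with pineal and choroid plexus RNA, was far above the next HIP rat at 274. Dcn had a log2 difference of 0.019 ± 0.24 for HIP vs. WT rats and of -0.000875 ± 0.23 for AKO vs. WT rats (SE). The 95% confidence interval of the fold was 0.718 to 1.43 for HIP vs. WT rats and 0.714 to 1.40 for AKO vs. WT rats, so these data do not exclude differences within these bounds.

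Lum, which had the lowest values of the 9 genes, ran from 34.2 through 59.1 to 93.2 in WT rats, from 31.9 through 55.5 to 97.9 in HIP rats, and from 32.9 through 55.1 to 106 in AKO rats. The groups overlapped over nearly their whole ranges, and 10RT46 was again the highest HIP rat, ahead of the next at 65.7. On the log2 scale the difference in Lum was -0.12 ± 0.19 for HIP vs. WT rats and -0.054 ± 0.20 for AKO vs. WT rats (SE).

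For Fmod the lowest, median and highest normalized counts were 190.3, 310.2 and 509 in WT rats, 259, 376 and 619 in HIP rats, and 166, 504 and 759 in AKO rats. The median was higher in HIP than in WT rats and highest in AKO rats, but the lowest AKO rat, 7AKO30, was below every WT rat. The mean was 323 ± 91.6 in WT rats, 391 ± 113 in HIP rats and 478 ± 200.4 in AKO rats (SD, n = 10 per group). Fmod had the smallest p-value of the 9 genes for AKO vs. WT rats, with a log2 difference of 0.48 ± 0.24 (SE), an unadjusted p of 0.0589 and a Benjamini-Hochberg adjusted p of 0.543 in limma. The fold was 1.39 (95% confidence interval 0.987 to 1.96), and 7 of 10 AKO rats were above the WT median. It also had the smallest p-value for HIP vs. WT rats, with a log2 difference of 0.27 ± 0.17 (SE), an unadjusted p of 0.125 and an adjusted p of 0.999 in limma. Here the fold was 1.21 (0.944 to 1.55), and 7 of 10 HIP rats were above the WT median.

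Bgn ran from 491 through a median of 632 to 1288 in WT rats, from 567 through 769 to 1067 in HIP rats, and from 505 through 877 to 2234 in AKO rats. The highest value belonged to AKO rat 4KAH35, far from the next AKO rat, 6KAH99, at 1377, and the lower ends of the 3 groups were close together. The mean was 732 ± 259 in WT rats, 783 ± 169 in HIP rats and 1033 ± 521 in AKO rats (SD, n = 10 per group). The log2 difference in Bgn was 0.42 ± 0.24 for AKO vs. WT rats (SE), with an unadjusted p of 0.0902 and an adjusted p of 0.583 in limma. It was -0.29 ± 0.21 for HIP vs. AKO rats, the smallest p-value of the 9 genes in that comparison (unadjusted p 0.193, adjusted p 0.584, limma).

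Slc6a13 encodes GAT2, a transporter that takes up GABA and taurine and is found at the meninges rather than in neurons. It ran from 42.3 through a median of 128 to 243 in WT rats, from 86.4 through 119 to 251 in HIP rats, and from 61.0 through 106 to 350.5 in AKO rats. The median was highest in WT and lowest in AKO rats, the groups overlapped, and the lowest rat of the 30 was a WT rat, 10RT55. For Slc6a13 the log2 difference was 0.065 ± 0.24 for HIP vs. WT rats and -0.033 ± 0.31 for AKO vs. WT rats (SE). Slc6a11, the astrocyte GABA transporter gene, and Slc6a12, the betaine transporter, had unadjusted p-values of 0.157 or more in every comparison.

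Aldh1a2 encodes the retinaldehyde dehydrogenase that makes retinoic acid, and in the brain it is best known from the meninges. Its lowest, median and highest normalized counts were 226, 316 and 530.3 in WT rats, 231, 324 and 636 in HIP rats, and 203, 393 and 709 in AKO rats. The highest HIP rat was 12RT23, the rat with cerebellum RNA, and the highest WT rat, 10RT51, stood apart from the next at 385. The log2 difference in Aldh1a2 was 0.12 ± 0.17 for HIP vs. WT rats and 0.26 ± 0.22 for AKO vs. WT rats (SE), and 5 of 10 rats were above the WT median in each case.

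Of the 9 genes, 0 had an adjusted p under 0.05 in limma for HIP vs. WT rats, where 0% of the 17085 genes tested did, and 0 had an unadjusted p under 0.05, where 2.57% of genes did. The log2 difference was above 0 for 8 of the 9 genes, with a median of 0.081 over the 9 against 0.0018 over all genes tested. For AKO vs. WT rats, 0 of the 9 genes passed the adjusted threshold, which 0.0997% of the 17058 genes passed, and 0 passed the unadjusted threshold, which 9.34% passed. Here 6 of the 9 differences were above 0, with a median of 0.26 against 0.0014 over all genes tested. For HIP vs. AKO rats, 0 of the 9 genes passed the adjusted threshold and 0 the unadjusted, against 0.17% and 12.7% of the 17092 genes, and 7 of the 9 differences were below 0, with a median of -0.15 against 0.0047 over all genes tested. With sample-quality weights, 5.02% of all genes passed the adjusted threshold for AKO vs. WT rats and 6.69% for HIP vs. AKO rats, and still 0 of the 9 genes. Each group serves in 2 of the 3 comparisons, so these sets of differences are not independent of each other.

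Over the HIP vs. WT and AKO vs. WT comparisons, the upper bound of the fold was highest for Col3a1 in AKO vs. WT rats, at 2.25, and lowest for Lum in HIP vs. WT rats, at 1.22. 10RT43, 10RT46 and 7AKO19 were 3 rats with RNA of other regions that were known from earlier results. Fits without them kept the rats high in olfactory bulb markers and those high in striatum markers. Without these 3 rats, 7 of the 9 genes were higher in HIP than in WT rats (median log2 difference 0.075), and 9 of 9 were higher in AKO than in WT rats (median 0.38). When 12RT23 was left out as well, 5 of 9 were higher in HIP than in WT rats, with a median of 0.0019. In both of these settings 0 of the 9 genes passed the unadjusted threshold in limma in any comparison run. Leaving out 1 rat at a time moved the median over the 9 genes as well. For HIP vs. WT rats it ran from 0.0084 (5 of 9 higher) without 10RT55 to 0.18 (8 of 9 higher) without 10RT51, and it moved by over 1.5 times also without 10RT43, 10RT44, 10RT45, 10RT46, 10RT52, 10RT54 or 12RT23. For AKO vs. WT rats it ran from 0.13 (6 of 9 higher) without 6KAH99 to 0.42 (9 of 9 higher) without 4KAH27, and it moved by over 1.5 times also without 10RT55 (0.16) or 4KAH35 (0.16). For HIP vs. AKO rats it ran from -0.27 without 4KAH27 to -0.047 without 6KAH99, and it moved by over 1.5 times also without 10RT52, 10RT54, 12RT23, 4KAH35 or 6KAH98.

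**Figure D2:**
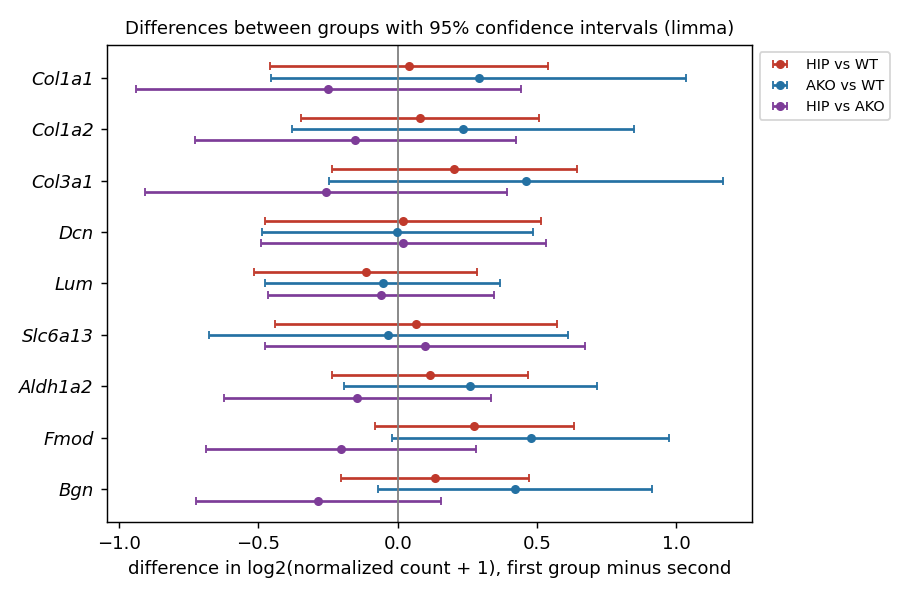
Difference in log2(normalized count + 1) for each of the 9 genes in HIP vs. WT, AKO vs. WT and HIP vs. AKO rats, as the first group minus the second. Points are the limma estimates and bars their 95% confidence intervals; every interval includes 0, and the interval for Fmod in AKO vs. WT rats comes closest to leaving it out, from -0.020 to 0.97.

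The AKO rats were not a uniform group for these genes. The 3 rats 6KAH98, 6KAH99 and 4KAH35 had the 3 highest values of the AKO group for 7 of the 9 genes, all but Dcn and Lum. The remaining rat with KAH in its name, 4KAH27, had the lowest value of the AKO group for 7 of the 9 genes, all but Slc6a13 and Fmod. For Col1a1 the 4 KAH rats had 779, 1062, 756 and 86.4 normalized counts, while the 6 AKO-named rats ran from 243 through a median of 302 to 507. The KAH rats thus held both ends of the group. For Bgn the KAH rats had 1268, 1377, 2234 and 505, and the AKO-named rats ran from 556 through 798 to 1222.

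Each name series was also set beside the WT rats. This split follows the names in the labels, but it was chosen with earlier results of these rats known, so its differences are given as a description, with no test. In the 4 KAH rats, Fmod had a log2 difference of 0.84 ± 0.27 from WT rats and Bgn one of 0.76 ± 0.32 (SE). For Slc6a13 the direction differed from that in the whole AKO group, with a log2 difference of 0.51 ± 0.40 (SE). In the 6 AKO-named rats, the difference from WT rats was 0.24 ± 0.25 for Fmod, 0.19 ± 0.21 for Bgn and -0.40 ± 0.29 for Slc6a13 (SE). The median over the 9 genes was 0.58 in the KAH rats and 0.063 in the AKO-named rats. The difference between the 2 name series was not tested.

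The 9 genes differed more between rats than most genes did. The coefficient of variation, the SD as a percentage of the mean, was 31.6% to 57.8% over the 30 rats, with a median of 42.8%. The median over the 15526 genes that averaged 10 or more normalized counts was 20.8%, and 9 of the 9 genes were above it. Within WT rats the coefficient was 25.0% to 43.8%, within HIP rats 21.6% to 48.4% and within AKO rats 35.04% to 67.0%. In each group 9 of 9 genes were above the median of all genes in that group, which was 19.6%, 15.9% and 22.1% respectively. Above the 90th percentile of all genes were 0 of 9 genes in WT rats, 1 in HIP rats and 5 in AKO rats. The mean log2 level of the 9 genes had an SD of 0.43 in WT rats, 0.38 in HIP rats and 0.70 in AKO rats.

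The variation was shared. Over the 30 rats, all 36 pairs of the 9 genes had a positive correlation of their log2 levels, with Pearson's r from 0.45 for Lum with Fmod to 0.95 for Col1a1 with Col1a2, and a median of 0.74. Spearman's rho was 0.38 to 0.94, with a median of 0.72. Each pair without the 2 rats farthest from the median of its first gene had an r of 0.32 to 0.92. Within WT rats r was 0.31 to 0.97, within HIP rats 0.21 to 0.94 and within AKO rats 0.55 to 0.98 (n = 10 each). Without the 2 farthest rats of the group, it was -0.21 to 0.87 in WT, -0.17 to 0.95 in HIP and 0.31 to 0.97 in AKO rats, and the lowest rho within HIP rats was -0.0061, so not every pair stayed positive within a group. Without 10RT43, 10RT46 and 7AKO19 it was 0.46 to 0.95. These are descriptions, since the values of a rat share its library and its normalization. As a scale, the median r of the 15517 other genes with Col1a1 was -0.029, and 0.329% of them reached 0.695, the lowest r of any of the 9 genes with Col1a1.

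In 6 rats all 9 genes were above their median of the 30 rats, and these came from each group (WT rat 10RT51, HIP rats 10RT46 and 12RT23, and AKO rats 4KAH35, 6KAH98 and 6KAH99). In 6 others none of the 9 genes was above its median, again from each group (WT rats 10RT44 and 10RT55, HIP rat 10RT54, and AKO rats 4KAH27, 7AKO19 and 7AKO30). The genes were thus high or low together in rats of every genotype.

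**Figure D3:**
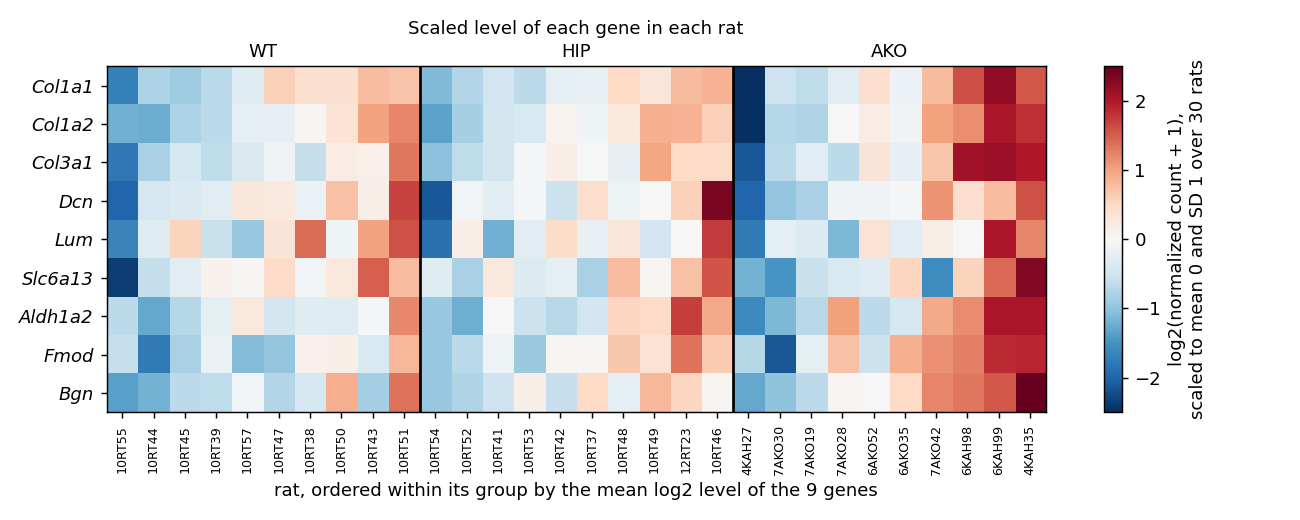
Scaled level of the 9 genes (rows) in the 30 rats (columns), with rats ordered inside WT, HIP and AKO by the mean log2 level of the 9 genes. Colour is log2(normalized count + 1) scaled to mean 0 and SD 1 over the 30 rats, red above and blue below the mean; columns tend to be of 1 colour from top to bottom, as in 4KAH27 (no gene above its median) and 6KAH99 (all 9 above).

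Ratios within a rat showed which genes moved most closely. The ratio of Col1a1 to Col1a2 normalized counts was 0.51 ± 0.091 over the 30 rats (SD) and ran from 0.351 in 10RT55 to 0.746 in 10RT47, a 2.12-fold range, while the genes themselves had ranges of 12.3-fold and 7.32-fold. The ratio of Col3a1 to Col1a2 had its highest value, 0.701, in 6KAH98. The ranges of Col1a1 and Col1a2 over the 30 rats were those of the AKO rats, in which their ratio had a 1.80-fold range. In WT rats the ratio of Col1a1 to Col1a2 had a 2.12-fold range, against 3.60-fold for Col1a1 and 2.89-fold for Col1a2. In HIP rats the range was 1.52-fold, against 2.80-fold and 2.61-fold. The ratio of the 2 chains of type I collagen thus had its narrowest range in HIP rats. In AKO rats, which differed most in level, its range was smallest beside the ranges of the 2 genes. The ratio of Bgn to Dcn was 3.26 ± 0.665 in WT rats, 3.66 ± 1.16 in HIP rats and 4.34 ± 0.661 in AKO rats (SD, n = 10 per group), and it was lowest, at 1.496, in HIP rat 10RT46. The difference in this ratio was not tested. The ratio of Slc6a13 to Col1a2 had its widest range in AKO rats, from 0.0592 in 7AKO42 to 0.329 in 4KAH27. The r of these 2 genes was lowest in HIP rats, at 0.60, against 0.68 in AKO and 0.80 in WT rats.

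**Figure D4:**
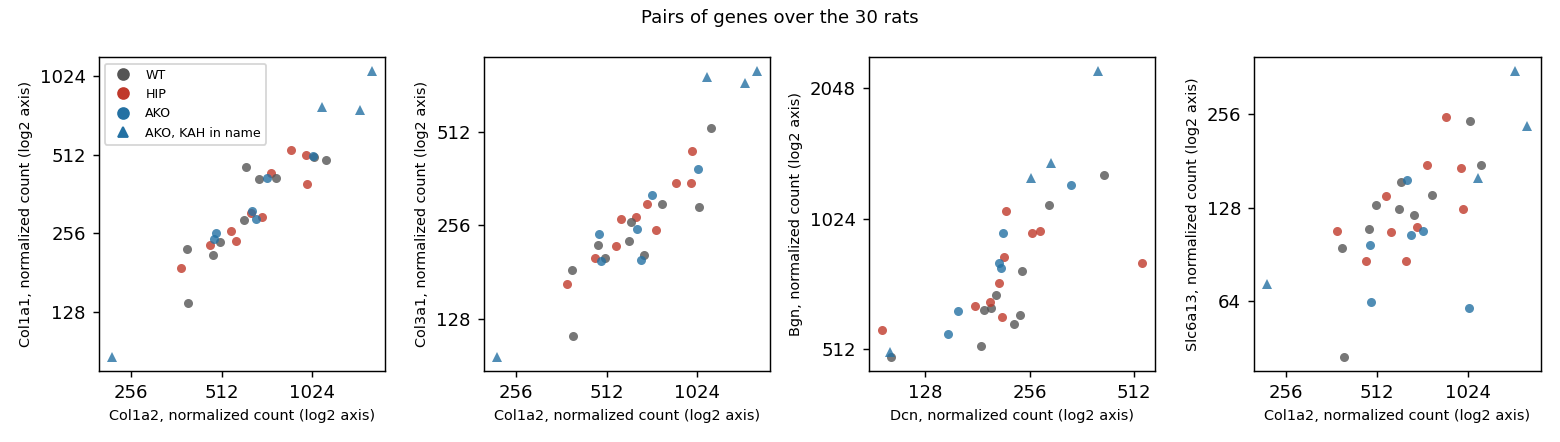
Normalized counts of 4 pairs of genes over the 30 rats on log2 axes, Col1a1, Col3a1 and Slc6a13 each against Col1a2, and Bgn against Dcn, coloured by group with triangles for the AKO rats with KAH in the name. The type I collagen pair lies closest to a line (r = 0.95), Slc6a13 against Col1a2 is more scattered (r = 0.68), and HIP rat 10RT46 lies apart to the right for Bgn against Dcn, with 541 normalized counts of Dcn.

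The genes outside the set whose log2 level most resembled the mean of the 9 scaled genes over the 30 rats were Slc22a6 (r = 0.93), Slc13a4 (0.91), Pcolce (0.90), Adh6 (0.88), Osr1 (0.88), Col6a3 (0.88), Crabp2 (0.88), Wnt6 (0.88), Igf2 (0.88), Nid2 (0.87), Akr1c14 (0.86) and Mrc2 (0.85). Slc22a6 is an organic anion transporter, Slc13a4 a sulfate transporter, Pcolce an enhancer of procollagen processing and Crabp2 a retinoic acid binding protein. The median over the 15517 other genes was -0.029 and the 99th percentile 0.66. Without 10RT43, 10RT46 and 7AKO19, Slc22a6 (0.95), Pcolce (0.92) and Slc13a4 (0.91) still led, and Serpinf1 (0.90) and Cpz (0.90) entered the first 12.

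Other lists of genes were read beside the set. Of 36 other meningeal genes that averaged 10 or more, 15 reached the 99th percentile of likeness to the 9 genes, as did 12 of 45 other matrix genes. In the lists of retinoic acid genes, TGF-β pathway genes, mural cells and choroid plexus, 2 of 18, 1 of 20, 1 of 11 and 1 of 11 did. No gene of the lists of endothelial cells, border macrophages, pineal gland, cerebellum, neocortex, striatum, olfactory bulb, blood, Schwann cells, and muscle and bone did. Not every matrix gene went with the set, since r was 0.18 for Col6a1 and 0.19 for Timp1, a matrix protease inhibitor.

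At the level of list means, the 9 genes ran with the other meningeal genes (r = 0.93 over 30 rats, 0.96 within WT, 0.98 within HIP and 0.93 within AKO rats) and with the other matrix genes (r = 0.86). For mural cells r was 0.44, but 0.19 without the 2 rats farthest from the median in the 9 genes, 4KAH35 and 6KAH99. For endothelial cells it was 0.42 and 0.11 without these rats. Within AKO rats r was 0.85 for mural and 0.74 for endothelial cells, against 0.021 and -0.21 within WT rats and 0.23 and 0.30 within HIP rats (n = 10 each). Border macrophages had an r of 0.50 (0.24 without these rats), retinoic acid genes 0.54, TGF-β pathway genes 0.18, blood 0.38 and Schwann cells 0.21. For the choroid plexus r was 0.35 and rho 0.65, for the pineal gland 0.19, for cerebellum 0.19, for olfactory bulb 0.43, and for muscle and bone -0.035. Neocortex markers had an r of -0.29 (rho -0.52) and striatum markers -0.48 (-0.68 without the 2 farthest rats).

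The 3 rats lowest in the 9 genes, 4KAH27, 10RT55 and 10RT54, had the 3 highest mean levels of 8 striatum markers, 10.1, 10.1 and 9.70. The rat highest in the 9 genes, 4KAH35, ranked 4 of 30 for striatum markers, at 9.52, so the 2 measures did not simply run against each other. 4KAH35 was also the highest AKO rat for the mural, endothelial, border macrophage and blood lists. Its summed mural level was 6302 normalized counts, against 2740 to 6302 in AKO rats as a whole, 2937 to 4809 in WT rats and 2659 to 4439 in HIP rats. Hba-a2, an α-globin chain, had 40576 normalized counts in it, against at most 16021 in any other rat. The summed choroid plexus level was 171 to 719 in WT rats, 161 to 18845 in HIP rats and 189 to 4354 in AKO rats, with no gene of that list at the floor in every rat of a group. The part of these tissues in the values of the 9 genes was not tested.

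**Figure D5:**
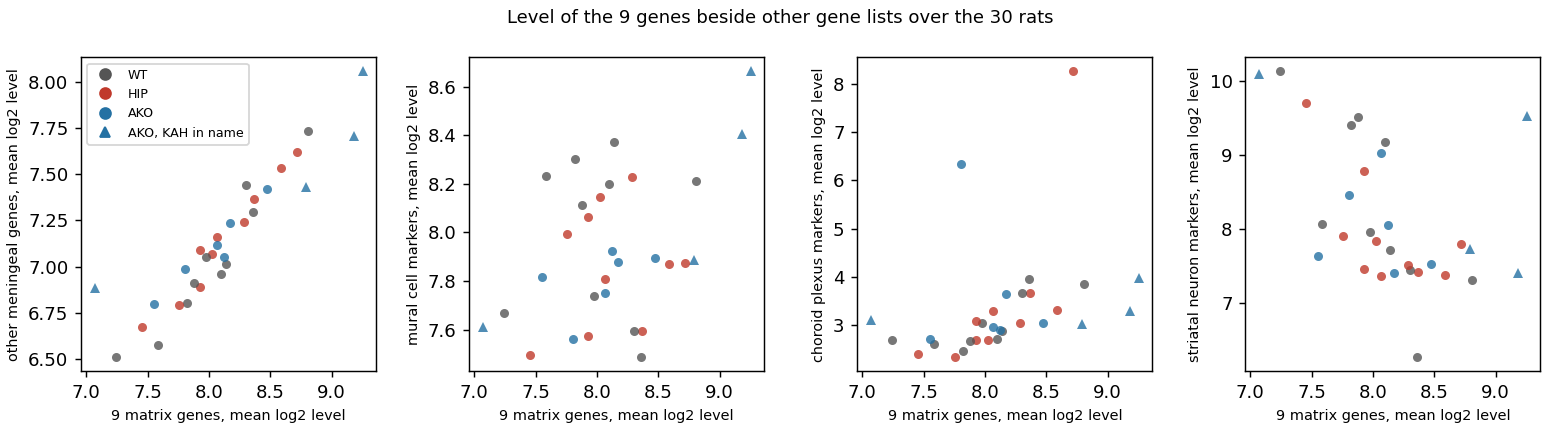
Mean log2 level of 4 gene lists (other meningeal genes, mural cell, choroid plexus and striatal neuron markers) against the mean log2 level of the 9 genes, 1 point per rat, coloured by group with triangles for the AKO rats with KAH in the name. The other meningeal genes follow the 9 genes (r = 0.93), mural cell markers do so less (r = 0.44), and HIP rat 10RT46 and AKO rat 7AKO19 stand apart for choroid plexus at 8.25 and 6.33.

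Genes of the same pathways were tested in the same limma fits. Of 46 other matrix genes, 1 was higher in AKO than in WT rats at an adjusted p under 0.05 and 11 at an unadjusted p under 0.05, with 0 lower, where 5.23% of all genes were higher at the latter threshold. The gene past the adjusted threshold was Col6a1, a chain of the microfibrillar type VI collagen, with means of 538 in AKO, 313 in WT and 329.7 in HIP rats. Its log2 difference was 0.82 ± 0.14 for AKO vs. WT rats (SE, adjusted p 0.0209, limma) and -0.73 ± 0.13 for HIP vs. AKO rats (adjusted p 0.00969, limma). Of 37 other meningeal genes, 1 was likewise higher at an adjusted p under 0.05 and 3 at an unadjusted p under 0.05, with 0 lower. This was Igfbp6, an IGF-binding protein, with means of 414 in AKO, 178 in WT and 179 in HIP rats. Its log2 difference was 1.20 ± 0.19 for AKO vs. WT rats (SE, adjusted p 0.00795, limma) and -1.19 ± 0.18 for HIP vs. AKO rats (adjusted p 0.00508, limma). Over the 30 rats the r of Igfbp6 with the 9 genes was 0.10, so these 2 genes did not follow the set.

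The matrix genes with the next smallest p-values for AKO vs. WT rats did not pass the adjusted threshold. They were Col6a2 (log2 difference 0.46, adjusted p 0.139), Timp1 (1.58, adjusted p 0.192) and Loxl1, a lysyl oxidase that cross-links elastin (0.55, adjusted p 0.388), all by limma. For HIP vs. AKO rats, 8 of the 46 matrix genes were lower in HIP rats at an unadjusted p under 0.05 and 0 higher, against 6.9% of all genes lower, and 3 of the 37 meningeal genes were lower and 0 higher. For HIP vs. WT rats, 0 of the 46 matrix and 0 of the 37 meningeal genes passed the adjusted threshold, and at the unadjusted threshold Eln, the elastin gene (log2 difference -0.40 ± 0.18, SE, p 0.0357, limma), and Slc13a3, a dicarboxylate transporter gene (-0.27 ± 0.12, p 0.0285, limma), were lower in HIP rats, where 1.46% of all genes were.

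Among the 18 retinoic acid genes, 0 passed the adjusted threshold in limma in any comparison. At the unadjusted threshold 1 of the 18 was lower in HIP rats both for HIP vs. WT, where 1.46% of all genes were, and for HIP vs. AKO, where 6.9% were. This was the retinoid X receptor gene Rxrb, with a log2 difference of -0.16 ± 0.061 for HIP vs. WT rats (SE, p 0.0154, limma) and -0.18 ± 0.080 for HIP vs. AKO rats (p 0.0338, limma). Among the 20 TGF-β pathway genes, whose signalling drives collagen expression in fibroblasts, 0 passed the adjusted threshold. At the unadjusted threshold 1 of the 20 was higher in AKO than in WT rats and 1 was lower in HIP than in AKO rats, shares close to those of all genes, 5.23% and 6.9%. In both it was Tgfb1, the ligand, which had a log2 difference of 0.35 ± 0.16 for AKO vs. WT rats (SE, unadjusted p 0.0397, adjusted p 0.503, limma) and -0.40 ± 0.16 for HIP vs. AKO rats (unadjusted p 0.0180, adjusted p 0.2998, limma). These 2 comparisons share the AKO rats.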

How the data were processed

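RNA was taken from brain tissue of 30 rats. Per the submitters' processing notes and the methods of the study, the authors used Partek Flow 10.0.22.0228, STAR 2.7.8a, Bowtie2 and DESeq2, the assembly rn7 and Ensembl105 genes. As deposited, the signal of each gene is a count that the authors normalized with DESeq2, not a whole number. Such scaling sets each rat's level relative to its other genes. In each rat a step was taken as 1 read. Of the values of a rat below 20 steps, the very smallest left aside, 83.2% to 86.8% were whole multiples of it (tolerance 0.02). Whole reads were therefore not recovered, and no count test was run. The estimated reads per rat limit precision to about 1 read.

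The test was limma 3.58.1 in R 4.3.3 (eBayes with a trend, two-sided) on log2(normalized count + 1), with the 20 rats of the groups compared, no covariates and genes with a mean of at least 1. Adjusted p-values are Benjamini-Hochberg over all genes tested. A fold understates the change of low genes. Rats are separate animals. No pair of libraries held identical values. Correlations used Python 3.11.15, numpy 2.4.6, pandas 2.3.3 and scipy 1.17.1, and figures matplotlib 3.10.9. On data simulated for HIP vs. WT rats with 17085 genes, 200 of 200 genes changed 2-fold were recovered, with 12 false calls. The simulation gave no separate recovery rate for the 9 genes. Their median coefficient of variation over all rats was 42.8%, against 20.8% over the 15526 genes compared with them. The simulation therefore does not show whether a 2-fold change in the 9 genes would have been called.

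The 9 genes and the 17 other lists were chosen with earlier results of these data known. The results of 1 of these lists are not reported here. Genes named from the lists were those with an adjusted p under 0.05 or, for matrix, meningeal, retinoic acid and TGF-β genes, some of the 4 smallest unadjusted p-values per comparison. The 12 genes most like the set were named, and genes of other tissues by their level in the rat with the highest list mean. Alternatives changed the pseudocount (0.1 or 5), the filter (none, or a mean of 10), the fit (all 30 rats together, or robust eBayes), the weights (by sample quality), the scaling (median-ratio, or quantile), the covariates (library number) or the rats (3 left out, each left out in turn, or the AKO name series apart). The 3 rats and the name series were chosen with earlier results known. Leaving out 12RT23 too was chosen after seeing the data.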

Additional observations from a re-analysis of the deposited data

Results flagged for a closer look

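The rats given here stood apart in their group by Dixon's test, which divides the gap between an end value and its neighbour by the spread from lowest to highest. For independent values from a normal distribution, chance picks about 1 in 20 groups in this way. This was done for the 9 genes and for the mean log2 levels of the other lists, 78 groups of values in all. Of these, 15 had such a rat, where that rate would give about 3.9. The groups were not independent, since the 9 genes varied together. The genes and lists were also chosen with earlier results of these rats known. The count of 15 is therefore a description and not an excess over chance.

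Of the 27 groups of values of the 9 genes, 5 had such a rat, and in each it was the highest. WT rat 10RT51 was far above the next WT rat for Col3a1 (529 against 301 normalized counts) and for Aldh1a2 (530.3 against 385). HIP rat 10RT46 was far above the next HIP rat for Dcn (541 against 274) and for Lum (97.9 against 65.7). AKO rat 4KAH35 was far above the next AKO rat for Bgn (2234 against 1377).

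The lists of other regions gave the widest gaps. HIP rat 10RT46 had a pineal mean of 9.40 against 1.39 in the next HIP rat and a choroid plexus mean of 8.25 against 3.67, and AKO rat 7AKO19 had a choroid plexus mean of 6.33 against 3.98. WT rat 10RT43 had a cerebellum mean of 12.9 against 5.75, a neocortex mean of 7.10 against 10.2 in the next lowest WT rat and a retinoic acid gene mean of 6.28 against 6.95. HIP rat 12RT23 had a cerebellum mean of 10.1 against 5.69.

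In AKO rats, 4KAH35 had a blood mean of 9.82 against 8.23, 6KAH98 a low TGF-β pathway mean of 7.32 against 7.87, and 6AKO52 a muscle and bone mean of 5.14 against 4.21.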

How the results depend on the processing

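No paired analysis was run, because the rats are separate animals and their names in the labels give no pairing between groups. With each rat left out, 0 of the 9 genes had an adjusted p under 0.05 in limma in any comparison, as in every other alternative. The count at an unadjusted p under 0.05 was 0 to 1 for HIP vs. WT (1, Fmod, without 10RT51, where 2.72% of all genes passed), 0 for HIP vs. AKO and 0 to 3 for AKO vs. WT. For AKO vs. WT it was 3 without 4KAH27 (Col3a1, Fmod, Bgn), 2 without 10RT51 or 7AKO30 (Fmod, Bgn), 1 without 6AKO52 (Fmod), 1 with all 30 rats in one fit (Fmod), 1 with sample-quality weights (Bgn) and 1 with quantile normalization (Fmod). Of all genes, 10.3%, 10.1%, 11.6%, 8.14%, 11.8%, 23% and 9.29% passed in these settings, in this order. No such count is given for the name series apart, which are described without a test. The causes were not tested.

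Directions turned for genes with small log2 differences. For HIP vs. WT, Dcn was -0.020 with weights, -0.014 with library number, -0.12 without the 3 rats and -0.17 without 12RT23 too, where Col1a1 was -0.056 and Aldh1a2 -0.040. Slc6a13 was -0.00209 with library number. For AKO vs. WT, Dcn was 0.082 with weights, 0.017 with quantile normalization, 0.000766 with median-ratio rescaling, 0.0034 with library number, 0.058 without the 3 rats and 0.12 with the KAH rats only. Lum was 0.0035, 0.0048 and 0.10, and Slc6a13 0.11 and 0.51, with weights (Lum only), without the 3 rats and with the KAH rats only. For HIP vs. AKO, Dcn was -0.10 with weights, and without the 3 rats and then 12RT23 Dcn was -0.17 and -0.23 and Slc6a13 -0.043 and -0.11.

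With single rats left out, the differences that turned ran, for HIP vs. WT, from -0.087 to 0.13 (Col1a1), -0.12 to 0.15 (Dcn) and -0.10 to 0.17 (Slc6a13), for AKO vs. WT from -0.12 to 0.12 (Dcn), -0.15 to 0.032 (Lum) and -0.20 to 0.075 (Slc6a13), and for HIP vs. AKO from -0.12 to 0.15 (Dcn), -0.15 to 0.037 (Lum) and -0.0094 to 0.27 (Slc6a13).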

Other observations

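Among markers of the brain's immune border, a list outside the matrix and meningeal genes, 7 border macrophage genes were tested. At an unadjusted p under 0.05 in limma, 2 of 7 were higher in AKO than in WT rats and 4 of 7 were lower in HIP than in AKO rats, where 5.23% and 6.9% of all genes were, and 0 passed the adjusted threshold. Their median log2 difference was 0.28 for AKO vs. WT, -0.56 for HIP vs. AKO and -0.28 for HIP vs. WT rats, against medians over all genes tested of 0.0014, 0.0047 and 0.0018. The first 2 comparisons share the AKO rats.

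Of 5 blood genes, 1 was lower in HIP than in AKO rats at an unadjusted p under 0.05, where 6.9% of all genes were, and 1 was higher in AKO than in WT rats, where 5.23% were. The median log2 difference was -0.60 and 0.53, and none passed the adjusted threshold in limma. AKO rat 4KAH35, which is in both comparisons, stood apart for blood genes, with a mean log2 level of 9.82 against 8.23 in the next AKO rat, and its part in these differences was not tested.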
